A study of Mus musculus with 18 samples.

Results

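The alpha-arrestin genes Txnip, Arrdc1, Arrdc2, Arrdc3 and Arrdc4 were followed in primary cortical astrocyte cultures exposed to ethanol. They are 5 of the 51912 genes counted, picked by gene name as the members of this family, and all 5 were among the 24495 genes with enough reads to be tested. The family was singled out because Arrdc3 mRNA was higher in ethanol-treated dishes. The ethanol contrasts of Arrdc3 are therefore given as a description without a p-value, while the other 4 members, which entered by family name, were tested. The members and tests were chosen with earlier results of these data known, so these p-values are not those of a blind choice. Arrdc5, the remaining arrestin-domain gene of this kind, had 3 read pairs in 1 of the 18 libraries and was not tested.

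The cultures came from postnatal day 0 cortices, males and females in equal number, hemizygous for the transgene Tg(Aldh1l1-EGFP/Rpl10a)JD130Htz, from B6;FVB carriers crossed to C57BL/6J mice. In these mice the astrocyte promoter Aldh1l1 drives a ribosomal protein fused to EGFP, so that tagged ribosomes and the mRNA bound to them can be pulled down by translating ribosome affinity purification (TRAP, the IP fraction). Every dish carried the transgene, was kept without serum for 24 h and then received either 50 mM ethanol or no ethanol (control) for 24 h. RNA-Seq was made from the IP fraction of 6 control and 6 ethanol dishes, and from the total RNA (input) of 3 control and 3 ethanol dishes, which are also the dishes of IP replicates 4 to 6. The labels do not say whether dishes were plated from separate animals or cultures, so p-values measure the spread between dishes. Libraries held 74239854 to 132810705 read pairs on genes, with a median of 84119135. Levels are given as CPM (read pairs scaled to library size with TMM factors), and a gene was called where its p-value, adjusted over all genes tested, was below 0.05.

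Alpha-arrestins are adaptor proteins with an arrestin fold. Most carry PY motifs that recruit ubiquitin ligases of the Nedd4 family, and through these they send membrane proteins such as glucose transporters to endosomes and lysosomes. Txnip also binds thioredoxin and restrains glucose uptake, and Txnip and its closest relative Arrdc4 are well-known targets of the glucose-sensing factors of the Mondo family with their partner Mlx. Arrdc3 regulates membrane receptor traffic and energy expenditure, and Arrdc1 recruits Tsg101 to bud small vesicles from the plasma membrane.

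The sequences upstream of 3 members are shown because Txnip and Arrdc4, which share a known glucose-responsive control, differed in these cultures, and because Arrdc3 is the member the family was singled out for. Each is the 250 bases before the RefSeq transcription start (GRCm38.p6), written 5′ to 3′ along the gene's own strand, at chr3:96557707-96557956 (plus strand) for Txnip, chr7:68749239-68749488 (minus strand) for Arrdc4 and chr13:80883134-80883383 (plus strand) for the first of 3 listed Arrdc3 starts. Capitals mark matches, on either strand, to 4 motifs. These are CACGTG (an E box), CACGNG followed by 5 bases of any kind and a second CACGNG (paired E boxes as in carbohydrate response elements, either strand), CCAAT or its reverse complement ATTGG (an NF-Y box), and GTAAACA or its reverse complement TGTTTAC (a forkhead motif). The motifs were written down after the Txnip window had been read.
Txnip: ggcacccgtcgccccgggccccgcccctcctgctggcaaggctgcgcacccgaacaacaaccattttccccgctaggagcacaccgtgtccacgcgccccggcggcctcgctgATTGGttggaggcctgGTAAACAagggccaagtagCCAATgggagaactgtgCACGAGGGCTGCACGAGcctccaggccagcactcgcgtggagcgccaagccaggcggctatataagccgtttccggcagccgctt
Arrdc4: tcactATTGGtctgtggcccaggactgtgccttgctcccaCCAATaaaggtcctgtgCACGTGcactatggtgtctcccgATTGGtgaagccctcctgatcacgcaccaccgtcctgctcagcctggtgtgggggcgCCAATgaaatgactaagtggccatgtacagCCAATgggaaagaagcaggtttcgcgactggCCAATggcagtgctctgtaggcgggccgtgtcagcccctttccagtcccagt
Arrdc3: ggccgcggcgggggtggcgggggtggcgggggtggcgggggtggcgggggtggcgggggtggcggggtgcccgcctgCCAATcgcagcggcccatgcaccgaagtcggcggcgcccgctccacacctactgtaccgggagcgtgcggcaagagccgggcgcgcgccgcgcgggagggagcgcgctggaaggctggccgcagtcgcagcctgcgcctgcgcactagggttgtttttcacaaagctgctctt

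The Txnip window held the paired E boxes as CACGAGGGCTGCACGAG, beginning 85 bases before the start. It also held the forkhead motif, beginning 121 bases before the start, and a CCAAT box on each side of it. Among the windows of 27025 genes, from 250 bases before to 50 after the start, 14 (0.0518%) held the paired E boxes and 3.55% the forkhead motif, compared with 7.24% for CACGTG and 37.9% for the CCAAT box. The Arrdc4 window held 1 CACGTG and 6 CCAAT boxes but no paired E boxes in this spacing. A CCAAT box was found once in the Arrdc3 window shown and 3 times upstream of Arrdc2, and none of the 4 motifs was found upstream of Arrdc1. The second listed Arrdc3 start held none. A match is a description of these letters and not evidence of a bound site.

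Txnip rose with ethanol in both fractions. The gene (ENSMUSG00000038393, chr3:96557957-96561883, plus strand) had between 6028 and 14196 read pairs per library. In the IP fraction the 6 control dishes had a lowest, median and highest level of 83.2, 85.6 and 89.1 CPM, and the 6 ethanol dishes 105.6, 111.1 and 113.0 CPM. Every ethanol dish was above every control dish, with a gap wider than the range of either group. Of all genes tested, 5.09% had every ethanol dish above every control dish in IP and 14% in input. In input the 3 control dishes had 68.8, 72.5 and 73.2 CPM and the 3 ethanol dishes 89.2, 90.7 and 90.5 CPM, again without overlap.

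The Txnip mean in IP was 85.6 ± 2.23 CPM (SD, n = 6) in control and 110.1 ± 2.86 CPM (SD, n = 6) in ethanol dishes, a log2 fold change of 0.37 (SE 0.0256, edgeR adjusted p = 7.59e-18), or 29.4% more. In this comparison 11.9% of all genes tested were called higher and 9.48% lower. Of the 11066 genes averaging 5 CPM or more, Txnip had the 34th largest log2 fold change. In input the means were 71.5 ± 2.38 and 90.2 ± 0.857 CPM (SD, n = 3), a log2 fold change of 0.33 (SE 0.0277, edgeR adjusted p = 7.63e-30), where 7.21% of genes were called higher and 7.78% lower. The size of this p-value depends on the fit. With edgeR's filterByExpr filter on low counts the input change was also 0.33 (edgeR adjusted p = 6.24e-11). Leaving out each library in turn gave 0.36 to 0.38 in IP and 0.30 to 0.35 in input.

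The Txnip level itself depends on how reads were assigned. The gene lies inside Gm15441, an RNA annotated on the opposite strand at chr3:96555765-96566801, and the deposited table, counted without regard to strand, drops read pairs that could belong to both. Over the 18 libraries it held 144189 pairs for Txnip, 71.8% of the 200891 pairs on the Txnip strand. For the other 4 members the ratio was 100.0% to 101.0%. Counted by strand, Txnip in control dishes stood at 113.5 ± 2.30 CPM in IP (SD, n = 6) and 95.2 ± 2.12 CPM in input (SD, n = 3). On these counts its ethanol log2 fold change was 0.38 in IP (edgeR adjusted p = 7.76e-19) and 0.36 in input (edgeR adjusted p = 1.94e-42). Gm15441 had 522 pairs of its own strand over all libraries, was lower in IP than in input (log2 fold change −1.05, edgeR adjusted p = 1.82e-06) and was not called with ethanol in IP (0.33, edgeR adjusted p = 0.431) or input (−0.15, edgeR adjusted p = 0.824).

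Arrdc4, which is known to limit glucose uptake as Txnip does, was not called with ethanol in either fraction. The gene (ENSMUSG00000042659, chr7:68736995-68749241, minus strand) had a lowest, median and highest IP level of 47.7, 49.8 and 50.6 CPM in control and 43.1, 48.6 and 55.3 CPM in ethanol dishes. The ethanol dishes spread to both sides of the controls, with replicate 1 highest and replicate 2 lowest. Their coefficient of variation was 8.43%, compared with 2.13% in control. In input the control dishes had 45.9, 42.2 and 46.6 CPM and the ethanol dishes 43.7, 45.7 and 47.0 CPM, and these groups overlapped as well.

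The log2 fold change of Arrdc4 was −0.02 in IP (95% interval −0.10 to 0.06, edgeR adjusted p = 0.835) and 0.01 in input (95% interval −0.05 to 0.08, edgeR adjusted p = 0.881). These intervals leave out a rise of the size seen for Txnip. The sign is not settled. It turned to 0.01 in IP without ethanol replicate 2, and to −0.03 in input without control replicate 5 or −0.01 without ethanol replicate 6.

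**Figure D1:**
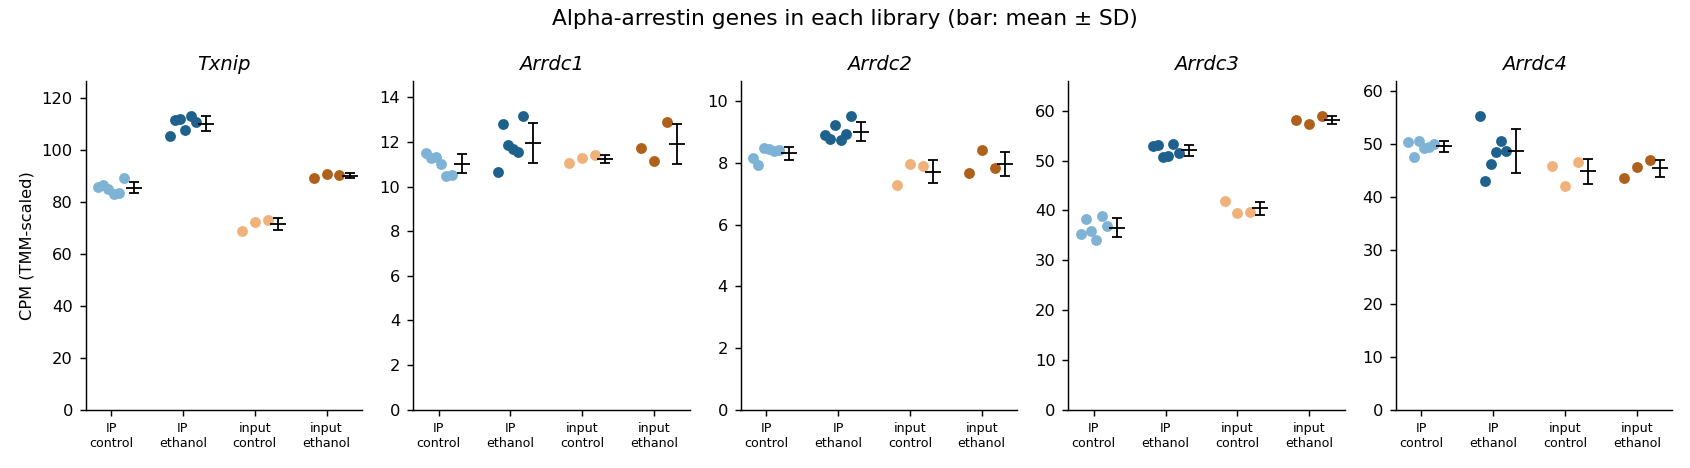
Level of each alpha-arrestin gene in each of the 18 libraries. The y axis is CPM after TMM scaling and starts at 0 in every panel, points are dishes, and bars are the mean ± SD of 6 IP or 3 input libraries. Txnip and Arrdc3 are higher in all ethanol dishes of both fractions, while the Arrdc4 ethanol dishes in IP lie between 43.1 and 55.3 CPM around the controls.

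Arrdc3 (ENSMUSG00000074794, chr13:80883384-80896042, plus strand), an adaptor for integrin beta 4 and other membrane proteins, is the member whose ethanol response singled out the family. Its IP levels had a lowest, median and highest value of 34.0, 36.3 and 39.0 CPM in control and 50.8, 52.2 and 53.3 CPM in ethanol dishes. In input the control dishes had 41.9, 39.6 and 39.7 CPM and the ethanol dishes 58.0, 57.4 and 58.9 CPM. The groups did not overlap in either fraction, and the ethanol dishes lay closer together than the controls.

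The Arrdc3 means were 36.5 ± 1.90 and 52.1 ± 1.15 CPM (SD, n = 6) in IP and 40.4 ± 1.28 and 58.1 ± 0.734 CPM (SD, n = 3) in input. The log2 fold change was 0.52 in both, with an SE of 0.0312 in IP and 0.0335 in input, or 43.3% and 43.5% more mRNA. By log2 fold change it ranked 6th in IP and 3rd in input among the 11066 genes averaging 5 CPM or more. Leaving out each library in turn gave 0.49 to 0.54 in IP and 0.51 to 0.55 in input. Since the ethanol response chose the gene, its ethanol values are a description here and wherever they are set beside other groups or fractions. The comparison of IP with input was not used to choose it and was tested. A short RNA annotated on the opposite strand, 1700023H06Rik, overlaps Arrdc3 and had 33 read pairs over all libraries.

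Arrdc2 and Arrdc1 had the lowest levels per kb of exon. Arrdc2 (ENSMUSG00000002910, chr8:70835129-70839720, minus strand), another Nedd4-family adaptor, had a lowest, median and highest IP level of 7.94, 8.41 and 8.48 CPM in control and 8.74, 8.92 and 9.51 CPM in ethanol dishes. These groups did not overlap, as for 5.09% of all genes tested. The log2 fold change of 0.12 (SE 0.0484) did not pass the test after adjustment over all genes (edgeR adjusted p = 0.0587). It passed with DESeq2 (0.11, adjusted p = 0.0364) and with the filter on low counts of edgeR's filterByExpr (0.11, adjusted p = 0.0481). In input the control dishes had 7.28, 7.96 and 7.89 CPM and the ethanol dishes 7.68, 8.42 and 7.82 CPM, which overlapped, and the log2 fold change was 0.04 (95% interval −0.11 to 0.19, edgeR adjusted p = 0.809).

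Arrdc1 (ENSMUSG00000026972, chr2:24925352-24935252, minus strand), the vesicle-budding member, had a lowest, median and highest IP level of 10.5, 11.2 and 11.5 CPM in control and 10.6, 11.8 and 13.2 CPM in ethanol dishes. The groups overlapped through ethanol replicate 1, and the other 5 ethanol dishes were above every control dish. The log2 fold change was 0.12 (SE 0.0474, edgeR adjusted p = 0.0653). With the replicate number as a block it was 0.12 and passed (edgeR adjusted p = 0.0443). Without ethanol replicate 1 it was 0.15 (edgeR adjusted p = 0.0154), in replicates 1 to 3 alone 0.05 (edgeR adjusted p = 0.754) and in replicates 4 to 6 alone 0.18 (edgeR adjusted p = 0.0371). In input the control dishes had 11.0, 11.3 and 11.4 CPM and the ethanol dishes 11.7, 11.1 and 12.9 CPM, with overlap and a log2 fold change of 0.08 (95% interval −0.05 to 0.20, edgeR adjusted p = 0.506).

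Of the 4 members tested for ethanol, 1, Txnip, was thus called in each fraction, against a background of 21.4% of all genes in IP and 15% in input. The ethanol effect was then compared between IP and input. The difference between the fractions, tested as an interaction over the 18 libraries, was 0.03 for Txnip (95% interval −0.05 to 0.11, edgeR adjusted p = 0.949), 0.03 for Arrdc1 (−0.13 to 0.19, edgeR adjusted p = 0.982), 0.07 for Arrdc2 (−0.10 to 0.23, edgeR adjusted p = 0.943) and −0.04 for Arrdc4 (−0.18 to 0.10, edgeR adjusted p = 0.965). For Arrdc3 the estimate was −0.01 (95% interval −0.11 to 0.09). The share of all genes called for this difference was 0%, with 1459 of 24495 genes at an unadjusted p below 0.05 in edgeR and 2 called by DESeq2. In the 12 libraries whose dishes were sequenced in both fractions, a fit with dish as the block called 102 genes, none of them among the 4 members tested.

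**Figure D2:**
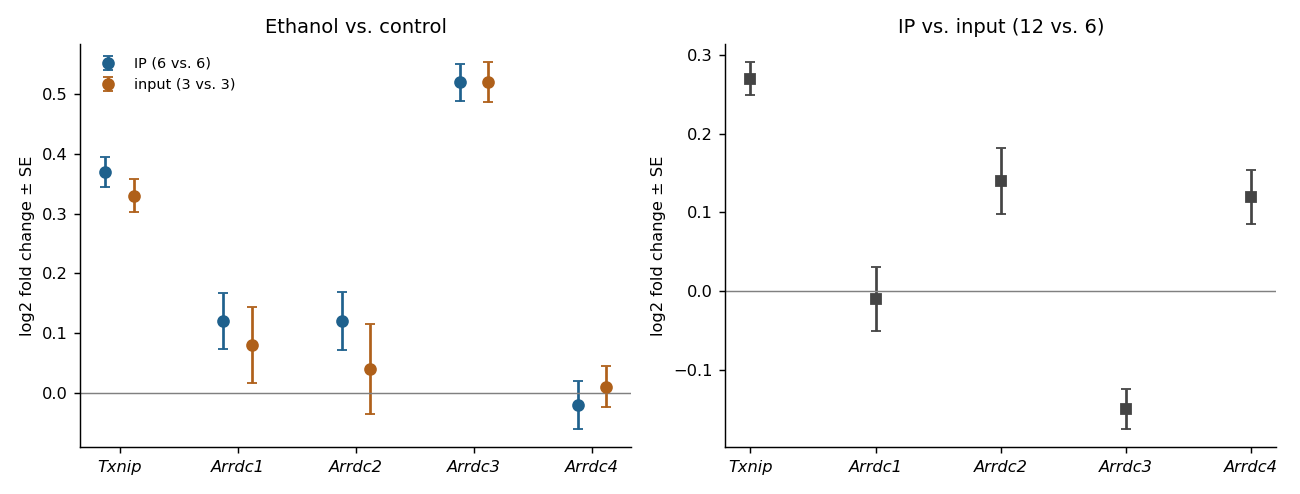
Log2 fold change ± SE of each member, with ethanol vs. control on the left (IP, 6 vs. 6 libraries; input, 3 vs. 3) and IP vs. input on the right (12 vs. 6 libraries). With ethanol, Txnip lies at 0.37 in IP and 0.33 in input and Arrdc3 at 0.52 in both, while Arrdc4 lies at −0.02 and 0.01.

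The contrast between Txnip and the other members was also taken within each library, as a ratio of CPM, which does not depend on library scaling. The ratio of Txnip to Arrdc4 in IP ran from 1.68 to 1.81 in control and from 1.91 to 2.59 in ethanol dishes without overlap, a log2 change of 0.39 (exact permutation test, two-sided, p = 0.00216, the smallest 6 against 6 dishes can give; 0.00325 adjusted over 3 ratios). The ratio of Txnip to Arrdc2 ran from 9.83 to 10.9 in control and 11.7 to 12.7 in ethanol dishes (log2 change 0.25, exact permutation p = 0.00216, 0.00325 adjusted). The ratio of Txnip to Arrdc1 ran from 7.46 to 8.47 in control and 8.43 to 9.92 in ethanol dishes, so that these ranges overlapped (log2 change 0.25, exact permutation p = 0.00433, 0.00433 adjusted). In input all 3 ratios were higher in every ethanol dish, by 0.25 to 0.32 on the log2 scale, where 3 against 3 dishes cannot go below p = 0.1 in an exact permutation test. The ratios were chosen after the levels had been seen and carry the same Txnip change tested above. They use counts taken without regard to strand, in which Txnip is undercounted as described above.

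**Figure D3:**
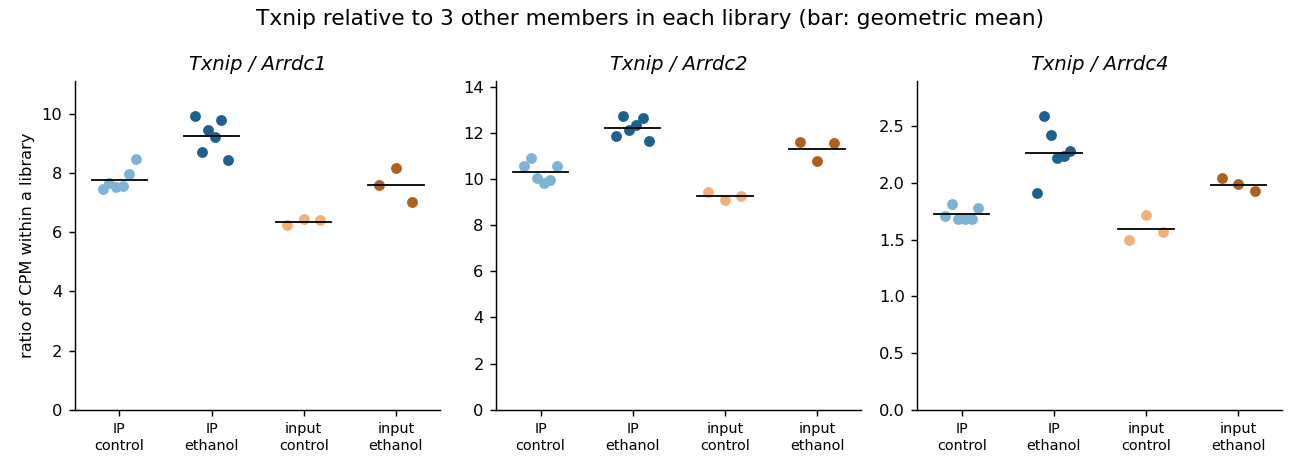
Ratio of Txnip CPM to the CPM of Arrdc1, Arrdc2 or Arrdc4 within each library, by group. Points are dishes, black bars are geometric means and the y axes start at 0. The Txnip to Arrdc4 ratio had geometric means of 1.72 in control and 2.26 in ethanol dishes in IP, and 1.59 and 1.98 in input.

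Between the fractions, 4 of the 5 members differed, where 51% of all genes were called (25.2% higher in IP and 25.8% lower). Txnip was higher in IP than in input (log2 fold change 0.27, SE 0.0210, edgeR adjusted p = 3.71e-19). The IP and input dishes of 1 treatment did not overlap for Txnip. The share of all genes whose IP and input dishes separate in this way was not counted. Separations between fractions, for Txnip and the members below, are therefore descriptions only. Arrdc3 went the other way, with 10.1% less mRNA in IP (log2 fold change −0.15, SE 0.0249, edgeR adjusted p = 1.83e-07), and its lowest input dish was above the highest IP dish within each treatment.

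Arrdc2 (0.14, SE 0.0424, edgeR adjusted p = 0.00336) and Arrdc4 (0.12, SE 0.0341, edgeR adjusted p = 0.00279) were slightly higher in IP. Both calls were lost when libraries were scaled by total counts alone, with 0.09 (edgeR adjusted p = 0.0680) for Arrdc2 and 0.07 (edgeR adjusted p = 0.0862) for Arrdc4. The test over 18 libraries does not use the pairing of the 12 that share a dish. A fit of those 12 with dish as the block gave 0.15 for Arrdc2 (edgeR adjusted p = 0.00641) and 0.13 for Arrdc4 (edgeR adjusted p = 5.60e-06). The Arrdc4 dishes overlapped between fractions in the ethanol groups and not in the control groups. Arrdc1 did not pass the test (−0.01, 95% interval −0.09 to 0.07, edgeR adjusted p = 0.838). In bulk RNA, fewer cells of a type and less RNA per cell cannot be told apart.

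With both factors together, the order of the group means was not the same for Txnip and Arrdc3. Txnip was highest in IP ethanol, then input ethanol, IP control and input control, whereas Arrdc3 was highest in input ethanol, then IP ethanol, input control and IP control. In both orders no neighbouring groups overlapped, which for Arrdc3 includes the ethanol difference it was chosen for. The share of all genes whose neighbouring groups are all separate was not counted. For Arrdc1 and Arrdc4 all neighbouring groups overlapped, and for Arrdc2 IP ethanol alone stood apart from its neighbour.

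Levels were compared between members per kb of exon. In IP control dishes Txnip stood at 27.4 ± 0.713, Arrdc4 at 12.3 ± 0.262, Arrdc3 at 5.83 ± 0.304, Arrdc1 at 4.39 ± 0.174 and Arrdc2 at 2.57 ± 0.0667 CPM per kb (SD, n = 6). The order was the same in all 4 groups when the length was the union of all exons. With the longest transcript as the length, Arrdc3 passed Arrdc4 in the ethanol groups, with 12.6 against 12.5 CPM per kb in IP and 14.1 against 11.6 in input. Among 17027 protein-coding genes ranked by mean CPM per kb over the 18 libraries, Txnip stood at percentile 89.6, Arrdc4 at 74.8, Arrdc3 at 65.3, Arrdc1 at 55.7 and Arrdc2 at 46.3. All these levels use the counts taken without regard to strand. Those counts held 71.8% of the pairs on the Txnip strand, so Txnip is understated beside the other members.

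**Figure D4:**
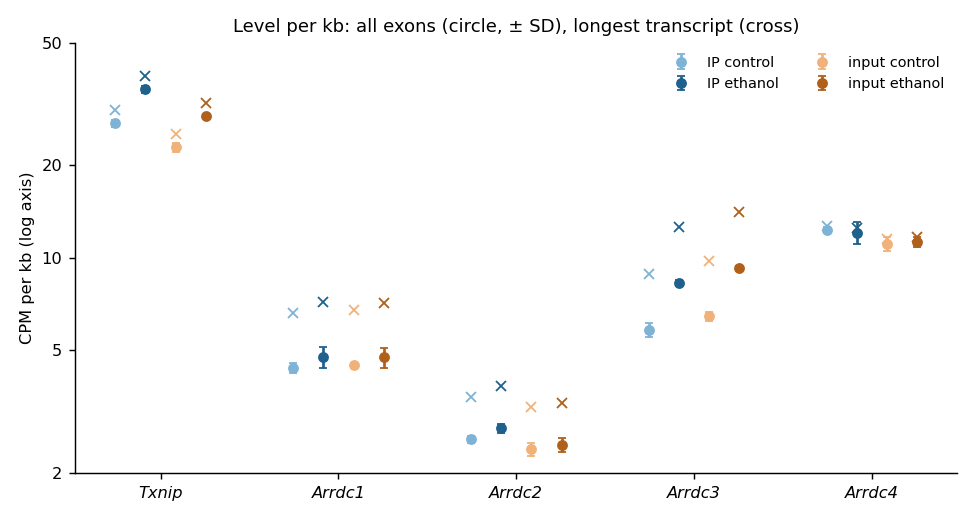
Level per kb of exon of each member in the 4 groups, on a log axis. Circles use the union of all exons (mean ± SD, n = 6 in IP and 3 in input) and crosses the longest transcript. Txnip is the highest member in every group, between 22.9 and 35.3 CPM per kb of union exon. Counts were taken without regard to strand, which undercounts Txnip.

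After the mean of each group was subtracted, log2 CPM of Txnip and Arrdc3 had a Pearson correlation of −0.06 over the 18 libraries. Txnip had 0.32 with Arrdc1, 0.35 with Arrdc2 and −0.34 with Arrdc4, and Arrdc3 had −0.19 with Arrdc1, −0.42 with Arrdc2 and 0.05 with Arrdc4. These are descriptions over libraries of which 12 come in pairs from the same dish. Among 11065 other genes with at least 5 CPM, the 5 most like Arrdc3 were B3glct (0.88), Trim33 (0.87), Hmgcs1 (0.84), Dhx8 (0.79) and Tnrc6a (0.79), and the 5 most like Txnip were Noc2l (0.82), Ikbkb (0.81), Mboat7 (0.79), Itgb5 (0.78) and Arap1 (0.78). As the highest of 11065 correlations over 18 libraries, values of this size can come from the search alone. Shared regulation was not tested.

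The genes known to act upstream of, with or downstream of the alpha-arrestins were followed as lists, beside a median log2 fold change with ethanol of 0.01 in IP and 0.00 in input over all genes tested. Over all genes, 11.9% were called higher and 9.48% lower in IP, and 7.21% higher and 7.78% lower in input, and each count with ethanol below is to be read against these shares. The lists were chosen with earlier results of these data known. Of the 24495 genes tested, 11066 averaged 5 CPM or more, and fewer reads make a change harder to call. Shares among genes as abundant as the list members were not counted. The list with the most members called was that of the Foxo factors and the genes they are known to induce, a program of nutrient limitation and stress resistance. In IP 15 of 18 members were called higher and 1 lower, with a median of 0.17 (all genes, 11.9% and 9.48%), and in input 11 were higher and 1 lower, with a median of 0.12 (all genes, 7.21% and 7.78%). In IP the factors Foxo4 (0.27) and Foxo3 (0.16) rose, as did Sesn3, a sestrin that restrains mTORC1 (0.25), and Pdk4, a kinase that inhibits pyruvate dehydrogenase (0.23). In input these 4 rose by 0.14, 0.10, 0.24 and 0.20 on the log2 scale. Foxo6 rose by 0.37 in IP and did not pass in input (0.25, edgeR adjusted p = 0.129). Klf2, a Krüppel-like factor, fell in both fractions (−0.22 in IP and −0.31 in input).

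Txnip is known as an inhibitor of thioredoxin. The list held 11 genes of the thioredoxin system and Nlrp3, an inflammasome sensor known to bind Txnip. Of these 12 genes, 7, Nlrp3 among them, fell and 0 rose in IP (median −0.09), where 9.48% of all genes fell, and 4 fell and 1 rose in input (median −0.05), where 7.78% fell. Thioredoxin itself, Txn1, fell by 0.11 in IP (edgeR adjusted p = 0.00127) and by 0.07 in input (edgeR adjusted p = 0.0370). Prdx5, a peroxiredoxin, fell by 0.22 in IP and by 0.17 in input, and mitochondrial thioredoxin Txn2 fell by 0.14 in both. Prdx6, the most abundant member at 1171 CPM over all libraries, was not called (−0.05 in IP and −0.02 in input). Prdx1 was the member that rose in input (0.10) and stood at 0.00 in IP. Nlrp3 was scarce at 2.58 CPM, fell in IP (−0.34) and was not called in input (−0.11).

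The Mondo and Mlx factors and other glucose-responsive genes showed no shared direction, with 2 of 8 higher and 1 lower in IP (median 0.01) and 0 higher and 2 lower in input (median −0.01). Hk2, a hexokinase, fell in both fractions (−0.26 in IP and −0.27 in input). Mlxip, which encodes MondoA, rose in IP (0.10) and was not called in input (0.04), and its partner Mlx fell in input (−0.16) and was not called in IP (−0.06). AMPK subunits, part of the energy sensor known to phosphorylate Txnip, had 2 of 7 higher and 1 lower in IP (median −0.02) and 2 higher in input (median 0.00). Among these, the catalytic subunit Prkaa2 rose by 0.17 in IP and by 0.20 in input.

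Among proteins that alpha-arrestins are known to regulate, 3 of 8 genes rose in IP (median 0.09) and 2 in input (median 0.04), and none fell, while 11.9% of all genes rose in IP and 7.21% in input. The glucose transporter Slc2a1, known to be endocytosed with Txnip, rose by 0.17 in IP and by 0.14 in input, and the insulin receptor Insr by 0.15 and 0.09. Slc2a3, a second glucose transporter, rose in IP (0.14) and was not called in input (0.06). Itgb4, the integrin subunit bound by Arrdc3, was not called (0.11 in IP and −0.05 in input).

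The ligases and vesicle machinery that alpha-arrestins recruit were called at about the share of all genes (21.4% in IP and 15% in input). Of 11 Nedd4-family ligases and adaptors, 1 rose and 1 fell in IP (median −0.02) and 3 fell in input (median −0.03). Nedd4 itself was abundant, at 1557 CPM over all libraries, and was not called (0.03 in IP and 0.05 in input), while Smurf1 fell in input (−0.09) and was not called in IP (−0.03). Of 12 ESCRT and vesicle budding genes tested, 2 rose and 1 fell in IP (median 0.00) and 1 fell in input (median −0.02). The falling gene was Tsg101 in both fractions (−0.11 in IP and −0.10 in input), the ESCRT subunit that Arrdc1 recruits.

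Other genes with an arrestin fold were tested for comparison, with 3 of 7 higher and 1 lower in IP (median 0.03) and 1 higher in input (median −0.01). The beta-arrestins Arrb1 (0.15) and Arrb2 (0.11), which desensitize receptors, rose in IP and were not called in input (0.05 and 0.09). Of the glucocorticoid receptor and genes it is known to induce, 4 of 10 rose and 2 fell in IP (median 0.08) and 2 rose in input (median 0.01). The receptor Nr3c1 rose by 0.10 and 0.11, while Fkbp5, a sensitive target, fell in IP (−0.19). Pdk4 belongs to this list and to the Foxo list.

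**Figure D5:**
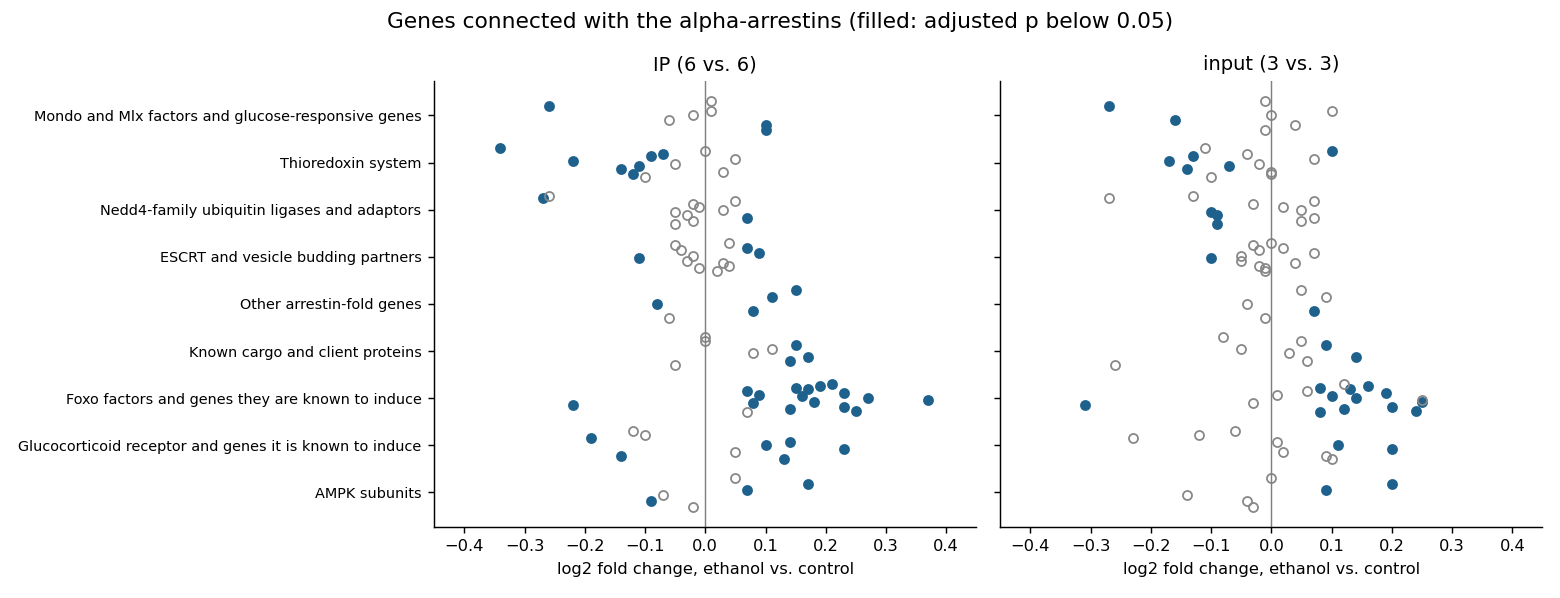
Ethanol log2 fold change of the genes in 9 lists connected with the alpha-arrestins, in IP (left, 6 vs. 6 libraries) and input (right, 3 vs. 3). Each point is a gene averaging 1 CPM or more, and filled points had an edgeR adjusted p below 0.05. The Foxo list lies mostly to the right of 0 in both fractions, with Klf2 to the left.

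Markers of other cells were read beside these results. The astrocyte markers were all present, with 10 of 10 at 1 CPM or more and a summed level of 1844 CPM in IP control, 1959 in IP ethanol, 1197 in input control and 1236 in input ethanol, and Slc1a3 as the most abundant (350.4 CPM in IP control). In IP against input, where 25.2% of all genes were higher and 25.8% lower, 8 of these 10 were higher and 1 lower. With ethanol, 4 of 10 were higher and 0 lower in IP, and 4 higher and 3 lower in input, where Slc1a3 rose (0.16) and Aldh1l1 (−0.13) and Gfap (−0.07) fell. Microglia markers, with Csf1r as the most abundant, summed to 13.2 and 14.6 CPM in IP control and ethanol and to 72.6 and 76.6 CPM in input, and 7 of 8 were lower in IP (25.8% of all genes). P2ry12 was near 0 at 0.0709 CPM over all libraries.

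Fibroblast and meningeal markers, led by Col1a1, summed to 110.1 and 113.0 CPM in IP and 219.0 and 221.2 CPM in input, with 4 of 6 lower and 2 higher in IP (25.8% and 25.2% of all genes). With ethanol, 1 of 6 fibroblast markers (Pdgfra, also on the oligodendrocyte list) and 1 of 8 microglia markers were called higher in each fraction and none lower. The summed level of the endothelial and mural markers fell with ethanol, from 1698 to 1174 CPM in IP and from 1336 to 937 CPM in input. Most of this sum was Acta2, a contractile actin. It fell from 1589 to 1069 CPM in IP and from 1186 to 790 CPM in input. Kdr was the other of the 2 of 7 tested markers that fell, and 5 were not called in either fraction. In IP against input, 3 of these 7 markers were higher and 3 lower. Pdgfrb, a mural cell receptor at 107.8 CPM over all libraries, was not called with ethanol (−0.02 in both fractions). The endothelial markers Pecam1 and Cdh5 stood at 0.332 and 0.136 CPM over all libraries, and Cldn5 had too few reads to be tested. Flt1 and Kdr, of the same list, were higher at 6.20 and 3.99 CPM.

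Oligodendrocyte lineage markers, led by Olig1, summed to 280.0 and 261.1 CPM in IP and 175.0 and 163.2 CPM in input, with Sox10 and Mog at 0.0469 and 0.0305 CPM over all libraries. In IP against input, 4 of 8 were higher and 3 lower (25.2% and 25.8% of all genes). With ethanol 2 of 8 were higher and 1 lower in IP, and 3 higher and 1 lower in input. Neuron markers, led by Stmn2, summed to 144.7 and 132.1 CPM in IP and 116.1 and 108.8 CPM in input. Of these 8, 5 were higher and 1 lower in IP than in input. With ethanol 1 of 8 was higher and 1 lower in IP, and 2 higher and 1 lower in input. The part of these markers in the alpha-arrestin results was not tested.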

How the data were processed

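Libraries of the 18 samples were prepared and sequenced by the authors, who used Trimmomatic for adapters and STAR for alignment to GRCm38, and deposited raw counts of read pairs per gene, unnormalized and unpooled. The deposited table of counts equals the single-library counts without regard to strand (0 differences). STAR leaves out multimapped pairs (3.6% on average) and pairs on overlapping genes (5.5%), so genes that overlap others, such as Txnip, can be undercounted.

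The filter kept genes whose counts summed to 10 or more, and the test was edgeR 4.0.16 in R 4.3.3 (TMM, estimateDisp, robust glmQLFit, glmQLFTest), with p-values adjusted by Benjamini and Hochberg over 24495 genes. IP vs. input used 18 libraries with a treatment term, ethanol was tested within each fraction, and the difference between fractions as an interaction. The SE is the log2 fold change divided by the square root of F, and 95% intervals assume normal errors. The fits were tested on simulated data. Positions and exon lengths are from GENCODE M21, and upstream sequences from RefSeq. RefSeq windows matched all 5 members.

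The members, gene lists and tests were chosen with earlier results of these data known. Named list genes were drawn from the 3 most abundant and the up to 3 with the largest change among those called in each comparison. Txn1, P2ry12, Pecam1, Cldn5 and Mog were chosen after their values were seen. Not every gene this rule covers is named. Input and IP libraries with the same number and treatment come from 1 dish, as their titles state, which pairs them (correlation of deviations 0.034 to 0.206). Control and ethanol dishes have replicate numbers in common, and no label says that a number marks a shared origin. Alternatives were RLE or total-count scaling, DESeq2 1.42.0, other filters, sense-strand counts, blocks, subsets of replicates and leaving out each library. No library copied another. For Arrdc1 and Arrdc2, with 601 to 1539 read pairs per library, counting error also limits the precision.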

Additional observations from a re-analysis of the deposited data

How the results depend on the processing

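Ethanol calls for Txnip, and its call and that of Arrdc3 between fractions, held under all alternatives run. Over alternatives other than leaving out a library, Txnip ranged from 0.36 to 0.38 with ethanol in IP, from 0.33 to 0.36 in input and from 0.22 to 0.28 for IP vs. input. The calls below changed, and the cause was not tested. With total counts, IP vs. input was 0.09 for Arrdc2 and 0.07 for Arrdc4, both no longer called. With ethanol in IP, Arrdc1 passed in replicates 4 to 6 alone (0.18), and Arrdc2 with DESeq2 (0.11) and filterByExpr (0.11). Signs near 0 turned for Arrdc1 in IP vs. input (0.01 without input ethanol replicate 6) and in the interaction (−0.02 without input ethanol replicate 5), and for Arrdc4 with ethanol in IP (0.01 without IP ethanol replicate 2), in input (−0.03 without input control replicate 5 and −0.01 without input ethanol replicate 6) and in the interaction (0.00 without input control replicate 5).

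Leaving out each library in turn, Arrdc1 ranged from −0.04 to 0.01 in IP vs. input, from 0.08 to 0.15 with ethanol in IP, from 0.02 (without input ethanol replicate 6) to 0.13 (without input ethanol replicate 5) in input and from −0.02 to 0.09 in the interaction. Arrdc2 ranged from 0.00 (without input control replicate 4) to 0.07 (without input control replicate 5) with ethanol in input, and was not called. Arrdc4 ranged from −0.06 to 0.01 with ethanol in IP, from −0.03 to 0.04 in input and from −0.09 to 0.00 in the interaction. Genes called with ethanol in IP numbered 2995 in replicates 1 to 3 alone and 3714 in replicates 4 to 6 alone, with fewer libraries, against 5233. Genes called for the interaction numbered 0 to 1 when each library was left out and 2 with DESeq2.

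With the replicate number as a block, Arrdc1 passed with ethanol in IP (0.12, edgeR adjusted p = 0.0443). The numbers were not taken to pair control and ethanol dishes, with correlations of deviations from −0.149 to 0.399 in IP and 0.0368 to 0.0736 in input. With the dish as a block, 102 genes were called for the interaction, and no other call of a member changed under a block.

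With the longest transcript as the length, levels in IP control, IP ethanol, input control and input ethanol were 30.3, 39.0, 25.3 and 31.9 CPM per kb for Txnip, 6.62, 7.17, 6.75 and 7.15 for Arrdc1, 3.53, 3.83, 3.27 and 3.39 for Arrdc2, and 8.84, 12.6, 9.78 and 14.1 for Arrdc3, and 12.7 for Arrdc4 in IP control. The 3 other Arrdc4 levels moved by less than 1 SD.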
